A study of Mus musculus with 18 samples.

Results

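The proteasome is the large protease that degrades ubiquitin-tagged proteins, and its genes are described here in mouse B lineage cells with and without G9a. The genes are the rows of the expression table whose symbols begin with Psma to Psmg followed by a digit, leaving out Psmb8 and Psmb9. This rule finds 46 of 12960 genes, and all 46 passed the filter on low values. They comprise 14 constitutive subunits of the 20S core, the immunoproteasome subunit Psmb10, 17 subunits of the 19S regulatory particle, 3 chaperones of 19S assembly, 6 activator or inhibitor genes and 4 chaperones of 20S assembly. The remaining member, Psmc3ip, encodes a recombination cofactor and only shares the symbol, so 45 members are proteasome genes.

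The study measured RNA in 18 libraries of 1000 cells, 3 in each of 6 groups, to ask which genes the histone methyltransferase G9a (gene Ehmt2) controls during B cell differentiation. Control mice (Ctrl) were Cd19Cre/+ and knockout mice (KO) were G9afl/fl Cd19Cre/+, so both genotypes carried the Cre recombinase, which this allele expresses in B cells. Activated B cells (B220+GL7+) and plasma cells (CD138+ with B220 mid or low) were sorted from spleen 72 h after 50 µg lipopolysaccharide (LPS) in 100 µl into the tail vein, with exclusion of dead cells and of F4/80, Cd11b and Thy1.2 positive cells. Naive B cells came from uninfected mice by CD43 beads, so the first step compares cells that differ in type, LPS exposure and method of isolation, whose parts cannot be told apart. The labels used here give no ages. They do not say whether each replicate was a different animal, and p-values therefore rest on a spread among samples that may be technical.

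The 20S core is a barrel of alpha subunits, which gate the entrance, and beta subunits, 3 of which carry the proteolytic sites. Psmb5 (chymotrypsin-like), Psmb6 (caspase-like) and Psmb7 (trypsin-like) are the constitutive catalytic subunits. In immune cells Psmb8, Psmb9 and Psmb10 replace them to form the immunoproteasome, which alters the peptides available for MHC class I. The 19S regulatory particle (RP in the plots) binds ubiquitin, removes it and unfolds the substrate with a ring of ATPases, and activators such as PA28 can cap the core in its place. Plasma cells secrete large amounts of antibody, and misfolded chains pulled back from the endoplasmic reticulum end at the proteasome.

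Values are RPKM divided by a scaling factor per library. A change is a difference of log2(scaled RPKM + 1), which understates the change of low genes, with the standard error (SE) from limma fitted over all 18 libraries. A gene was called at an adjusted p under 0.05. Depths estimated from the RPKM steps were 1.61 to 3.89 M reads in naive and 2.66 to 10.82 in activated libraries. They were 5.16 to 6.90 in plasma cell libraries. These estimates are rough, since 34.6% to 45.0% of the values scored lay within 0.1 of a whole read count. On the log2 scale the members had a median SD of 0.251 (Ctrl) and 0.287 (KO) in naive groups and of 0.0651 to 0.0914 in the other groups. Because the naive libraries spread more, the result of a fit of only the libraries compared is given where it differs. Replicate 3 of activated KO, the shallowest activated library by estimated depth, stood apart for several members. The 8 plasma cell markers, all measured, summed to 535 to 655 scaled RPKM in naive Ctrl, 1625 to 1806 in activated Ctrl and 12826 to 14487 in plasma cell Ctrl, highest in the cells labelled as plasma cells. Naive Ctrl libraries also held erythroid marker RNA (2 of 7 markers measured, summed at 284 to 374 against 4.02 to 4.98 in activated Ctrl) and platelet marker RNA (3 of 5 measured, 46.8 to 105 against 1.24 to 1.37). The part of these in the first step was not tested.

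Ehmt2 itself was 27.7, 16.7 and 13.8 scaled RPKM in naive Ctrl and 13.9, 23.3 and 13.9 in naive KO. It was 21.6, 19.5 and 25.7 in activated Ctrl and 23.3, 22.5 and 21.6 in activated KO. In plasma cells it was 17.6, 16.2 and 17.8 in Ctrl and 14.7, 12.3 and 14.3 in KO. The groups overlapped in naive and activated cells and were apart in plasma cells, and the difference was not called in any cell type. A value over the whole gene does not measure the deleted exons, so it does not check the genotype labels.

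Most core and 19S genes rose together between naive and activated Ctrl cells. The 14 core subunits summed to 1341, 1623 and 1531 scaled RPKM in the naive libraries and to 2580, 2603 and 2547 in the activated libraries. The 17 subunits of the 19S particle summed to 894, 1024 and 1014 in naive and to 1962, 2009 and 1749 in activated libraries. Neither sum overlapped between the cell types. Together the 46 members made up 0.914% ± 0.0477 (SD, n = 3) of the deposited RPKM of naive Ctrl libraries and 1.45% ± 0.0503 (SD, n = 3) of activated Ctrl libraries. Of the members, 33 of 46 rose and 4 of 46 fell, where 19.0% of all genes tested rose and 39.4% fell. The members' median change was 0.81 and that of all genes was -0.29.

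**Figure D1:**
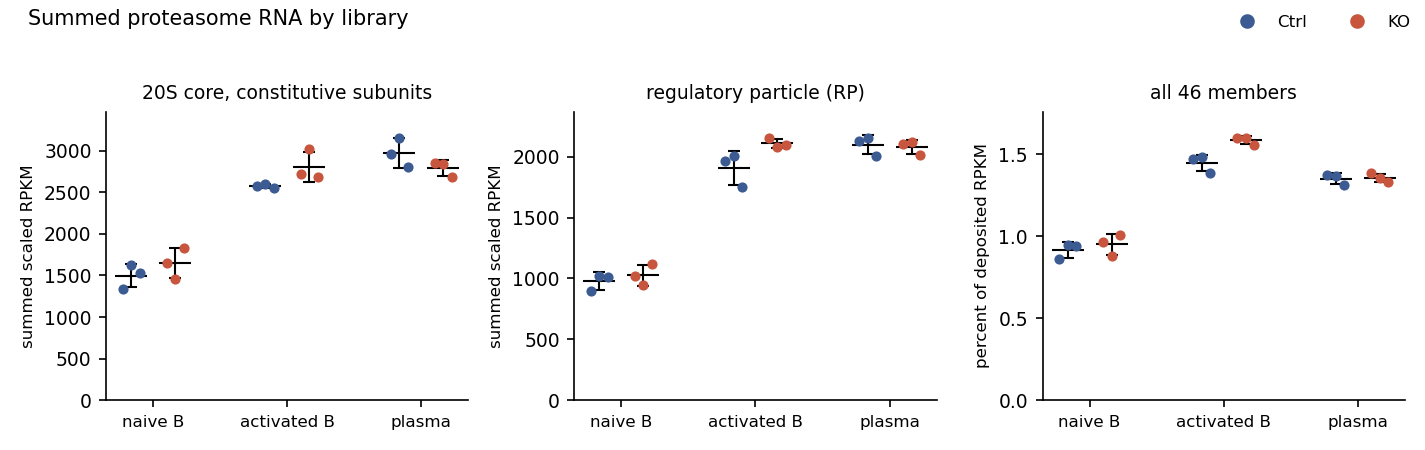
Points are libraries, with group mean and SD (n = 3), for the summed scaled RPKM of 14 core subunits (left) and 17 subunits of the 19S particle (middle) and for the percent of deposited RPKM in all 46 members (right). Core sums run from 1341 to 1623 in naive Ctrl and from 2547 to 2603 in activated Ctrl libraries. In plasma cell Ctrl the core sums run from 2801 to 3156, above activated Ctrl, while the deposited percent of all 46 members is 1.35 against 1.45.

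In the core, 13 of 14 constitutive subunits rose at this step, with a median change of 0.89. The largest change was in Psma4, an alpha subunit (1.46 ± 0.23 SE), and the smallest called change was in Psmb6 (0.28 ± 0.09 SE, adjusted p = 0.015). The Psmb6 call was lost under quantile normalization and 4 other settings, with adjusted p up to 0.395. Psma3, the exception, was 72.9, 98.7 and 114 scaled RPKM in naive and 126, 128 and 123 in activated Ctrl. Its groups did not overlap, but its change of 0.42 had an adjusted p of 0.052.

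The catalytic subunits moved by unequal amounts. Psmb5 (Entrez 19173, chromosome 14, 54614119 to 54618022) was 78.7, 71.9 and 90.5 scaled RPKM in naive and 166, 175 and 161 in activated Ctrl, a change of 1.06 ± 0.14 SE (adjusted p = 6.1e-06). Psmb7 (Entrez 19177, chromosome 2, 38588036 to 38644087) was 15.5, 20.6 and 19.1 in naive and 37.6, 37.7 and 37.4 in activated Ctrl, a change of 1.00 ± 0.14 SE. Psmb6 (Entrez 19175, chromosome 11, 70525367 to 70527858) was 156, 162 and 158 in naive and 192, 190.3 and 196 in activated Ctrl. Every activated library was above every naive library for all 3 genes. Psmb7 had the lowest level of the 14 core subunits in each group, 37.6 ± 0.181 (SD, n = 3) in activated Ctrl against 330.3 for Psma2, the highest. Which gene models gave the authors their lengths is not given in the sources used here, so differences between genes rest on lengths that were not checked.

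All 6 ATPases of the 19S base and all 8 lid subunits rose, as did 2 of the 3 other base subunits. Psmd14, the deubiquitinase that removes ubiquitin chains from substrates (Entrez 59029), was 50.9, 65.8 and 62.7 scaled RPKM in naive and 183, 187 and 169 in activated Ctrl. Its change of 1.58 ± 0.16 SE (adjusted p = 2.7e-07) was the largest of the 19S subunits. The ATPase Psmc1 (Entrez 19179) was 63.4, 74.2 and 73.7 in naive and 170.4, 176 and 153 in activated Ctrl, a change of 1.23 ± 0.12 SE (adjusted p = 1.9e-07). Another ATPase, Psmc3 (Entrez 19182), was 90.6, 71.4 and 68.4 in naive and 145, 150.2 and 138 in activated Ctrl, a change of 0.91 ± 0.10 SE. None of these 3 overlapped between the cell types. The ubiquitin receptor Psmd4 did not pass the test: its level was 43.2, 56.4 and 33.0 in naive and 46.7, 52.9 and 46.7 in activated Ctrl, with overlapping groups and an adjusted p of 0.34.

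The activators split. Psme3, which forms the nuclear activator PA28 gamma (Entrez 19192), was 63.4, 66.0 and 64.8 scaled RPKM in naive and 137, 132 and 112 in activated Ctrl, a rise of 0.95 ± 0.10 SE (adjusted p = 3.0e-07). Psme1 and Psme2 encode the alpha and beta subunits of the interferon-inducible activator PA28. Psme1 (Entrez 19186) was 230.4, 301 and 284 in naive and 209.9, 212 and 215 in activated Ctrl, so each activated library was lower, and it fell by 0.35 ± 0.11 SE (adjusted p = 0.013). This call was lost in 7 settings, without naive Ctrl replicate 2 among them, with adjusted p up to 0.0953. The ratio of Psme1 to Psme3 moved from 4.19 ± 0.491 to 1.69 ± 0.203 (SD, n = 3). Psme2 (Entrez 19188) was 239.8, 199.9 and 195 in naive and 209, 209 and 216 in activated Ctrl and was not called (0.01 ± 0.11 SE).

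Psme4, the nuclear activator PA200 (Entrez 103554), and Psmf1, the inhibitor protein PI31 (Entrez 228769), were low and were not called at this step. Psme4 was 7.98, 6.10 and 5.10 scaled RPKM in naive and 5.39, 6.22 and 6.87 in activated Ctrl. Psmf1 was 11.4, 9.27 and 16.9 in naive and 9.56, 11.1 and 10.5 in activated Ctrl. Both genes had overlapping groups.

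The 4 members that fell were Psmb10, Psme1, Psme2b and Psmg4. Psmb10, the immunoproteasome subunit that takes the place of Psmb7 (Entrez 19171, chromosome 8, 105935735 to 105938444), was 129.9, 116 and 98.9 scaled RPKM in naive and 78.8, 78.9 and 78.5 in activated Ctrl. It fell by 0.53 ± 0.18 SE (adjusted p = 0.018), a call lost without naive Ctrl replicate 1 (adjusted p = 0.0721). Psmg4 (Entrez 69666), which encodes a chaperone of alpha ring assembly, was 61.6, 48.5 and 64.9 in naive and 36.4, 37.2 and 36.6 in activated Ctrl and fell by 0.64 ± 0.16 SE (adjusted p = 0.0028). Psme2b, an intronless copy of Psme2 (Entrez 621823), was 96.8, 55.9 and 52.4 in naive and 40.8, 37.3 and 42.8 in activated Ctrl and fell by 0.70 ± 0.18 SE (adjusted p = 0.0036). Its reads could be shared with Psme2, so its level is uncertain.

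Chaperones were divided. None of the 3 chaperones of 19S assembly (Psmd5, Psmd9 and Psmd10) was called, with changes from 0.14 to 0.43. Of the 4 chaperones of core assembly, Psmg1 (1.13 ± 0.16 SE) and Psmg2 (0.91 ± 0.16 SE), whose proteins act as a pair, rose and Psmg4 fell. Psmg3 was not called (-0.08 ± 0.20 SE). Psmc3ip, the recombination cofactor, rose by 1.94 ± 0.42 SE. The 10 cycling cell markers, all measured, summed to 147 to 160 scaled RPKM in naive and to 1247 to 1465 in activated Ctrl, and their part in these changes was not tested.

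**Figure D2:**
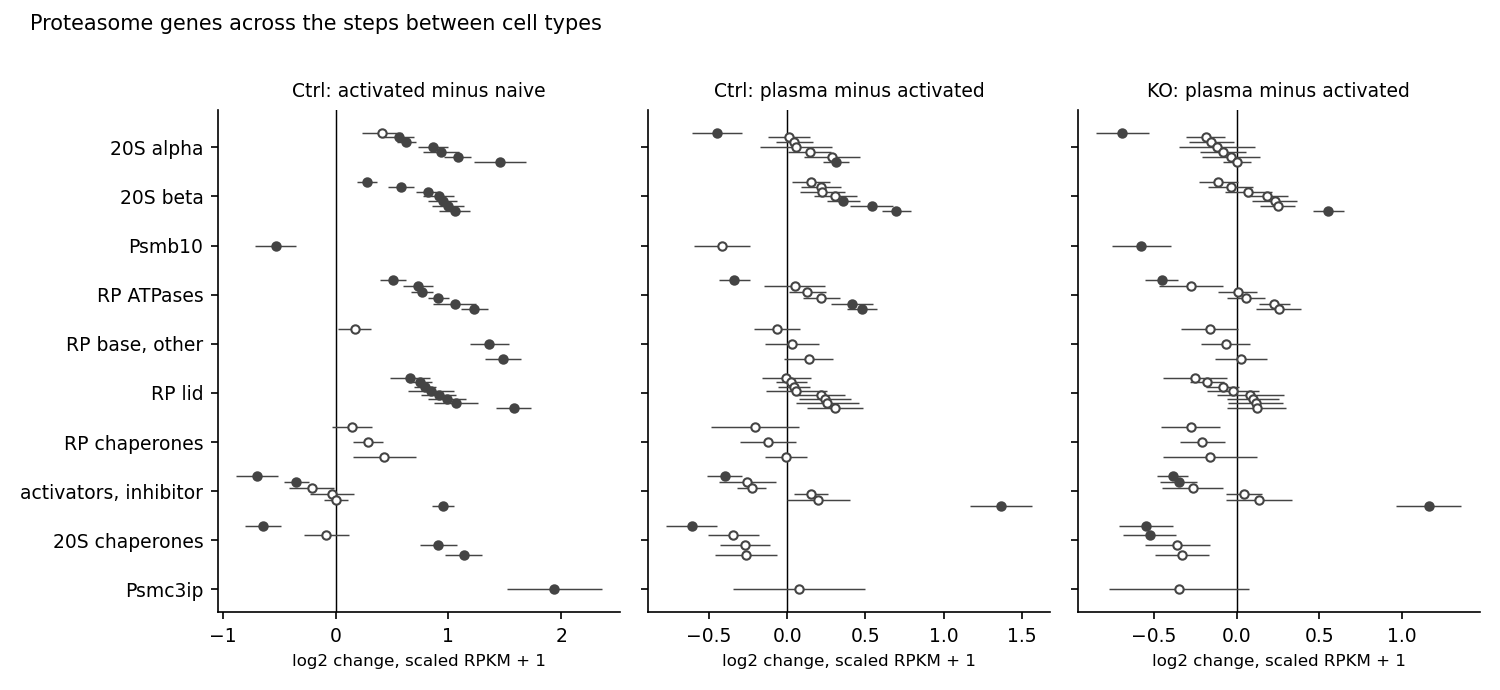
Each point is 1 member's change on the log2(scaled RPKM + 1) scale with its SE, in rows by role (RP, regulatory particle). Filled points passed an adjusted p under 0.05. Left, Ctrl activated minus naive: 33 members rose and 4 fell. Middle, Ctrl plasma minus activated: 7 rose and 4 fell, with Psme4 at 1.37. Right, the same step in KO: 2 rose and 7 fell.

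In KO cells, which share no library with the Ctrl comparison, 35 members rose and 5 fell, where 21.2% of all genes rose and 34.5% fell. By the fit of all libraries, all 33 that rose in Ctrl also rose in KO, which is 100% of the Ctrl list and 94.3% of the KO list. Psma3 and Psmg3 were added in KO. The 4 that fell in Ctrl fell in KO too, with Psme2 added. The fit of only the libraries compared called 33 higher and 4 lower in Ctrl but 32 and 4 in KO. In KO it called 12 of the 14 core subunits higher, so the overlap was not complete in that fit. The difference between the genotypes at this step was called for 1 member, Psmg3 (1.07 ± 0.28 SE, adjusted p = 0.047), where 1.35% of all genes were called higher and 1.27% lower.

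Between activated and plasma cells of Ctrl mice few members were called, and in both directions. By the fit of all libraries 7 of 46 rose and 4 of 46 fell, where 16.1% of all genes rose and 16.7% fell. The share that rose was near the background and the share that fell was below it. The fit of only the libraries compared called 15 and 8 of 46 (24.1% and 26.2% of all genes), above the background for rises and below it for falls. The balance turned with the scaling: 3 members rose and 8 fell on the RPKM as deposited, and 2 rose and 6 fell after quantile normalization. The members' median change was 0.07 with 31 positive, where the median of all genes was -0.03. On the RPKM as deposited the members' median was -0.14, where the median of all genes was also -0.14. After quantile normalization it was -0.08 (all genes 0.02). The direction of 16 members turned with the scaling, none of them among the 11 called. The sum of the 14 core subunits was 2962, 3156 and 2801 scaled RPKM in plasma cell Ctrl, above every activated Ctrl library, but their percent of deposited RPKM was 0.683, 0.694 and 0.655 in plasma cell and 0.688, 0.691 and 0.676 in activated Ctrl, with overlap. The percent held by all 46 members was 1.37, 1.37 and 1.31 in plasma cell and 1.47, 1.48 and 1.39 in activated Ctrl, lower in each plasma cell library.

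Psme4 had the largest change of the members at this step. It was 5.39, 6.22 and 6.87 scaled RPKM in activated and 17.7, 15.6 and 19.0 in plasma cell Ctrl, so the groups lay far apart, and it rose by 1.37 ± 0.20 SE (adjusted p = 1.8e-05). In KO it was 7.32, 6.81 and 7.34 in activated cells and 16.1, 17.4 and 18.4 in plasma cells, a rise of 1.16 ± 0.20 SE (adjusted p = 1.1e-04). The call held in all 23 settings tried in Ctrl, with adjusted p at most 2.3e-04. PA200 is best known for its role with acetylated histones in sperm formation.

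Of the constitutive catalytic subunits, Psmb6 and Psmb5 rose in plasma cells. Psmb6 was 192, 190.3 and 196 scaled RPKM in activated and 299, 349 and 294 in plasma cell Ctrl, a rise of 0.70 ± 0.09 SE (adjusted p = 6.7e-06) that held in all 23 settings. It rose in KO as well, from 198, 212 and 189 to 297, 290.1 and 294 (0.55 ± 0.09 SE, adjusted p = 9.6e-05). Psmb5 was 166, 175 and 161 in activated and 233, 271 and 229 in plasma cell Ctrl, a rise of 0.54 ± 0.14 SE (adjusted p = 0.0044). The Psmb5 call was lost on the RPKM as deposited and after quantile normalization (adjusted p up to 0.164). Psmb7 was 37.6, 37.7 and 37.4 in activated and 42.1, 48.2 and 42.3 in plasma cell Ctrl and was not called by the fit of all libraries (0.23 ± 0.14 SE, adjusted p = 0.27) but was by the fit of only the libraries compared (adjusted p = 0.035). Its groups did not overlap.

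The other members that rose were Psmc3, Psma7, Psmb4 and Psmc2. Psmc3 was 145, 150.2 and 138 scaled RPKM in activated and 203, 211 and 189 in plasma cell Ctrl, a rise of 0.48 ± 0.10 SE (adjusted p = 6.3e-04) that was lost after quantile normalization (adjusted p = 0.115). Psma7 (0.31), Psmb4 (0.36) and Psmc2 (0.42) also rose. They lost the call on the RPKM as deposited and after quantile normalization, with adjusted p up to 0.641, 0.912 and 0.322. In the fit of all libraries Psmb4 and Psmc2 lost it too without activated Ctrl replicate 4 or plasma cell Ctrl replicate 3. Psmc2 also lost it in that fit without plasma cell Ctrl replicate 1 or 4.

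Psmg4 fell again, from 36.4, 37.2 and 36.6 scaled RPKM in activated to 26.7, 22.8 and 21.8 in plasma cell Ctrl, by 0.61 ± 0.16 SE (adjusted p = 0.0067). Psme1 fell from 209.9, 212 and 215 to 152, 178 and 153, by 0.40 ± 0.11 SE (adjusted p = 0.0090). These 2 calls held in all 23 settings. Psmc5, a 19S ATPase (Entrez 19184), went from 164, 178 and 145 to 133, 131 and 120.1 and fell by 0.34 ± 0.10 SE (adjusted p = 0.013). Psma6, an alpha subunit (Entrez 26443), went from 292, 299 and 285 to 222, 212 and 208 and fell by 0.45 ± 0.16 SE (adjusted p = 0.038). Psma6 and Psmc5 thus moved opposite to the other called core and 19S subunits. In the fit of all libraries, leaving out any 1 library compared lost the Psma6 call, with adjusted p up to 0.101. In that fit the Psmc5 call was lost without activated Ctrl replicate 3 or plasma cell Ctrl replicate 4 (adjusted p up to 0.0843). Leaving out 1 library in the fit of only the libraries compared lost none of the calls of this step.

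Psme2 and Psme1, whose products form 1 ring, parted at this step. Psme2 was 231, 255 and 220.2 scaled RPKM in plasma cell Ctrl against 209, 209 and 216 in activated Ctrl, a change of 0.15 ± 0.11 SE that was not called. The ratio of Psme2 to Psme1 was 0.995 ± 0.0090 (SD, n = 3) in activated and 1.46 ± 0.0454 in plasma cell Ctrl, without overlap. Psme3 was 115, 101 and 107 and Psmf1 13.4, 12.02 and 10.8 in plasma cell Ctrl, and neither was called.

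In KO, 2 members rose at this step (Psmb6 and Psme4) and 7 fell (Psma6, Psmc5, Psme1, Psmb10, Psme3, Psmg1 and Psmg2), where 15.8% of all genes rose and 17.4% fell. The fit of only the libraries compared called 6 and 13 (24.4% and 28.4% of all genes). Psmb10, Psme3, Psmg1 and Psmg2 changed downward in Ctrl as well (-0.42, -0.23, -0.35 and -0.27), without a call in the fit of all libraries. In Ctrl the fit of only the libraries compared called Psmb10 and 3 of the 4 chaperones of core assembly lower. Of the 7 that rose in Ctrl 2 rose in KO, which is 28.6% of the Ctrl list. The difference between genotypes was tested as such and was called for 0 of 46 members in either fit. At an unadjusted p under 0.05 there was 1 member, and all genes at that p were not counted. The difference was below 0 in 42 of 46 members, with a median of -0.17, where the median of all genes was 0.01. The members' median was -0.11 on the RPKM as deposited (all genes 0.04) and -0.10 after quantile normalization (all genes -0.01). The member at an unadjusted p under 0.05 was Psma7, at -0.31 (95% interval -0.56 to -0.06, limma adjusted p = 0.9998). For Psmb5 the difference was -0.31 with an interval of -0.72 to 0.10. In this contrast 0.156% of all genes were called higher and 0 lower, and 1.25% and 0.375% in the fit of only these libraries.

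**Figure D3:**
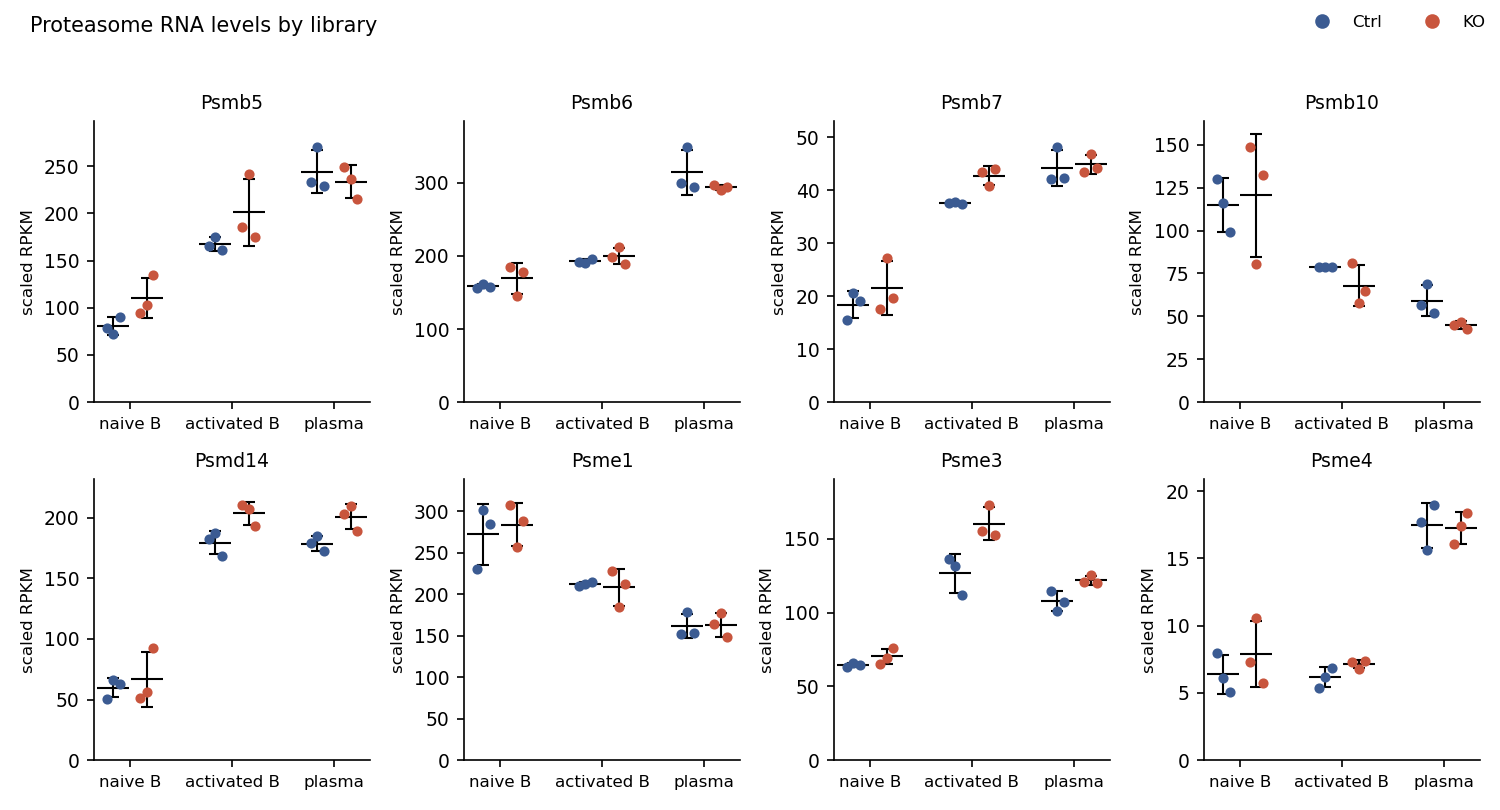
Scaled RPKM of 8 members in each library, with group mean and SD (n = 3), each panel with its own axis from 0. Psme4 stays between 5.10 and 10.6 in naive and activated cells and between 15.6 and 19.0 in plasma cells. Psmb10 and Psme1 run down across the cell types while Psmb5 runs up. In activated KO, replicate 3 is the highest point for Psmb5 at 242.

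Promoter sequences are shown for Psmb5, Psmb6 and Psme4, since these members rose in plasma cells and hold a match to TGACNNNGC, the core of the antioxidant response element through which the factor Nrf1 (Nfe2l1) drives proteasome genes. Each run covers 120 bases before and 10 after the RefSeq start site on GRCm38.p6, read 5′ to 3′ on the gene's strand, with the match in capitals. In Psme4 the capitals are the match on the opposite strand.
Psmb5, minus strand, chr14:54617986-54618115: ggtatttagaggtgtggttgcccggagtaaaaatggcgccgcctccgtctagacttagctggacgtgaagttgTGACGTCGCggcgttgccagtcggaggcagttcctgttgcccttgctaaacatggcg
Psmb6, plus strand, chr11:70525237-70525366: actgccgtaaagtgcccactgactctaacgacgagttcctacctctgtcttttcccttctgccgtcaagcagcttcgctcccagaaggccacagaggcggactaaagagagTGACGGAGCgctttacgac
Psme4, plus strand, chr11:30771655-30771784: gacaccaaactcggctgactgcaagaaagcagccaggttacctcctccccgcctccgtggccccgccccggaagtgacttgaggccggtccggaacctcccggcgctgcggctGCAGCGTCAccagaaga
In windows of 250 bases before and 50 after the start, searched on both strands, TGACNNNGC was found in 14.3% of the 42 promoters of the 39 members in the RefSeq table, against 12.4% of all 32851 promoters. The members were Psmb5, Psmb6, Psmc6, Psmd12, Psmd9 and Psme4. Psmc3, Psma7, Psmb4 and Psmc2, which were also called higher in plasma cell than in activated Ctrl, were not among them. The stricter TGACTCAGC, which is contained in the first pattern, was in 0 member promoters and 0.454% of all. CCAAT, the box of factor NF-Y, was in 31.0% of member promoters and 37.4% of all, and the E box CACGTG in 9.52% and 7.15%. These matches describe the letters only.

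The immunoproteasome share of catalytic subunit RNA was lower in activated than in naive cells and lowest in plasma cells. Psmb8, Psmb9 and Psmb10 together held 72.1%, 74.1% and 72.5% of the RPKM of the 6 catalytic genes in naive Ctrl, 69.4%, 68.2% and 68.6% in activated Ctrl and 59.6%, 58.6% and 58.2% in plasma cell Ctrl. No library of 1 cell type overlapped with another in Ctrl. A lower share need not mean less immunoproteasome RNA. Psmb10 was lower in every plasma cell Ctrl library than in any naive Ctrl library, but Psmb8, like Psmb5, Psmb6 and Psmb7, was higher. In KO neither Psmb8 nor Psmb9 was called between naive and plasma cells (-0.15 ± 0.09 and 0.14 ± 0.13 SE). By pair, the steepest course was that of Psmb10 over Psmb7. This ratio was 6.39 ± 1.74 in naive, 2.10 ± 0.00608 in activated and 1.34 ± 0.103 in plasma cell Ctrl (SD, n = 3). The ratio of Psmb8 to Psmb5 went from 4.03 ± 0.675 to 2.96 ± 0.138 and 1.91 ± 0.0605. That of Psmb9 to Psmb6 was 1.63 ± 0.377, 1.56 ± 0.0599 and 1.07 ± 0.0331. These ratios use genes within a library and so do not depend on the scaling factor. They were not tested.

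In KO the immunoproteasome share was 73.8%, 72.0% and 72.2% in naive, 66.1%, 63.4% and 65.8% in activated and 55.8%, 56.1% and 54.6% in plasma cells. It overlapped with Ctrl in naive cells and lay below every Ctrl library in activated and plasma cells. In plasma cells the ratio of Psmb10 to Psmb7 was 1.03, 1.00 and 0.963 in KO against 1.35, 1.43 and 1.23 in Ctrl. The ratio of Psmb8 to Psmb5 there was 1.55, 1.58 and 1.58 in KO against 1.98, 1.90 and 1.86 in Ctrl. The Psmb9 to Psmb6 ratios overlapped between the genotypes in plasma cells. Of the single genes, Psmb8 in naive cells was 422, 374 and 425 scaled RPKM in KO against 327, 333 and 298 in Ctrl, higher by 0.35 ± 0.09 SE (adjusted p = 0.028, and 0.68 in the naive libraries alone). Its direction was the opposite in plasma cells. There Psmb8 was 388, 374 and 339.6 scaled RPKM in KO against 461, 514 and 425 in Ctrl, a change of -0.34 ± 0.09 SE that was not called in the fit of all libraries (adjusted p = 0.13) and was in the fit of only these libraries (adjusted p = 0.044).

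**Figure D4:**
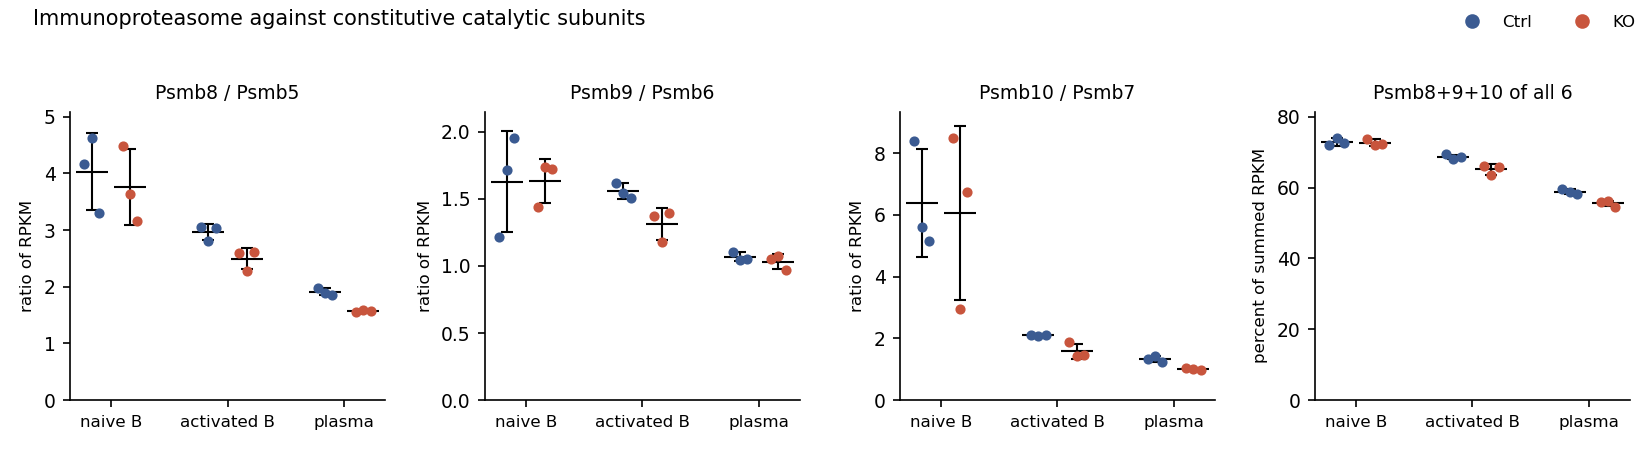
Ratios of each immunoproteasome subunit to the constitutive subunit it replaces (3 panels) and the percent of catalytic RPKM held by Psmb8, Psmb9 and Psmb10 (right), by library with mean and SD (n = 3), axes from 0. The percent is 72.9 in naive, 68.7 in activated and 58.8 in plasma cell Ctrl, and 72.7, 65.1 and 55.5 in KO.

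In activated B cells KO against Ctrl, none of the 46 members was called by the fit of all libraries. In that fit 0.422% of all genes were higher and 1.36% lower. An unadjusted p under 0.05 was reached by 2 members, and all genes at that p were not counted. The changes were small and mostly positive, 38 of 46 above 0 with a median of 0.13, while the median of all genes was -0.02 and 47.0% were positive. The groups did not overlap in 22 members higher and 1 lower in KO, where 15.3% and 16.0% of all genes were apart. The 19S subunits summed to 2152, 2082 and 2097 in activated KO, above the 1962, 2009 and 1749 of activated Ctrl. Without replicate 3 of activated KO the changes were positive in 40 of 46, with a median of 0.13.

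The fit of only the activated libraries called 4 members higher and none lower (5.26% and 6.02% of all genes), and called 1 to 3 when any library was left out. Psmd7, a lid subunit, was 107, 108 and 98.3 scaled RPKM in Ctrl and 133, 133 and 135 in KO, a change of 0.35 with an adjusted p of 0.64 in the fit of all libraries and 0.013 in the activated libraries alone. Psme3 was 137, 132 and 112 in Ctrl and 155, 173 and 152 in KO, a change of 0.34 (0.089 and 0.043). Every KO library was above every Ctrl library in both genes. The assembly chaperone Psmg1 was 44.4, 49.1 and 36.0 in Ctrl and 56.2, 61.9 and 54.9 in KO, a change of 0.42 (0.30 and 0.039). Psmc3ip was 15.9, 13.9 and 14.1 in Ctrl and 21.1, 24.3 and 19.1 in KO, a change of 0.52 (0.92 and 0.015). These 2 genes were likewise higher in each KO library. The cycling cell markers, 10 of 10 measured, summed to 1625 to 1847 in activated KO against 1247 to 1465 in activated Ctrl, and the plasma cell markers to 916 to 1105 against 1625 to 1806. Monocyte and macrophage markers (6 of 8 measured) summed to 122 to 156 in KO against 44.9 to 53.2 in Ctrl, of which Ly6c2 made up 94.1, 101 and 95.4 in KO and 17.4, 13.0 and 12.7 in Ctrl. Erythroid markers (2 of 7 measured) summed to 14.7 to 23.0 against 4.02 to 4.98, and T cell markers (5 of 9 measured) to 89.9 to 117 against 120.5 to 151. B cell markers (9 of 10 measured) summed to 5418 to 6781 in activated KO against 6975 to 8021 in activated Ctrl. The part of these marker genes in the differences was not tested.

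The catalytic subunits of activated cells were not called in either fit. Psmb5 was 186, 242 and 175 scaled RPKM in KO, with replicate 3 far above the others, Psmb6 198, 212 and 189 and Psmb7 43.4, 40.7 and 44.1. Psmb10 was 81.1, 58.0 and 64.8 in KO against 78.8, 78.9 and 78.5 in Ctrl, an overlap and the lowest change of the members (-0.22 ± 0.18 SE). Psme1 was 228, 184 and 212, Psme2 197, 179.5 and 195 and Psmf1 12.2, 13.3 and 11.97 in activated KO. Psme2 was below every Ctrl library and Psmf1 above every one, and neither was called.

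In plasma cells KO against Ctrl none of the 46 members was called in either fit, neither of which paired the samples by replicate number. The fit of all libraries called 0.438% of all genes higher and 0.172% lower, and that of the plasma cell libraries alone 2.38% and 2.73%. A fit of the plasma cell libraries with a block for replicate number did call members, as given in the last paragraph. In the fit of all libraries 3 members had an unadjusted p under 0.05, a level at which all genes were not counted. These were Psmb10, Psme2 and Psma7. Psmb10 was 56.7, 69.0 and 51.9 scaled RPKM in Ctrl and 45.0, 47.0 and 42.6 in KO, apart, with a change of -0.38 ± 0.18 SE (adjusted p = 0.84, and 0.059 in the plasma cell libraries alone). Psme2 was 231, 255 and 220.2 in Ctrl and 196, 206 and 187 in KO, also apart (-0.26 ± 0.11 SE, adjusted p = 0.67 and 0.073). Psma7 was 203, 214 and 189 in Ctrl and 178, 181 and 164 in KO (-0.21 ± 0.08 SE). All 3 were lower in each KO library than in any Ctrl library. The ratio of Psme2 to Psme1 was 1.20, 1.17 and 1.26 in KO against 1.51, 1.43 and 1.44 in Ctrl.

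The median change of the members in plasma cells was -0.03, with 18 positive, where the median of all genes was -0.004. The members' median turned to 0.03 on the RPKM as deposited (all genes 0.03) and 0.02 after quantile normalization (all genes -0.01). The groups were apart in 3 members higher and 9 lower, against 11.2% and 13.6% of all genes. Of the monocyte and macrophage markers, 6 of 8 measured, the summed level was 1709 to 1870.2 in plasma cell KO and 280.1 to 412 in plasma cell Ctrl. That sum was nearly all Ly6c2 (1690, 1852 and 1716 in KO, 363, 395 and 257 in Ctrl), and the other 5 markers (Csf1r, Lyz2, Adgre1, Itgam and Cd68) were not called. B cell markers (9 of 10 measured) summed to 3061 to 3384 in KO against 3562 to 4414 in Ctrl. Among them Cd79a was called lower (-0.82, adjusted p = 6.5e-05) and Cr2 higher (0.66, adjusted p = 0.027). The T cell marker Cd3e was called higher (3.16, adjusted p = 0.0013). Erythroid markers (2 of 7 measured) summed to 0.635 to 45.4 in KO and 0 to 0.764 in Ctrl, and plasma cell marker sums overlapped. The part of these marker genes was not tested. In KO plasma cells Psmb5 was 249.6, 236 and 215, Psmb7 43.5, 46.8 and 44.2, Psme1 164, 177 and 148, Psme3 121, 126 and 119.8 and Psmf1 12.8, 13.2 and 15.5. Psmb5, Psmb7, Psme1 and Psmf1 overlapped with Ctrl. Psme3 lay above Ctrl in every library without being called.

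**Figure D5:**
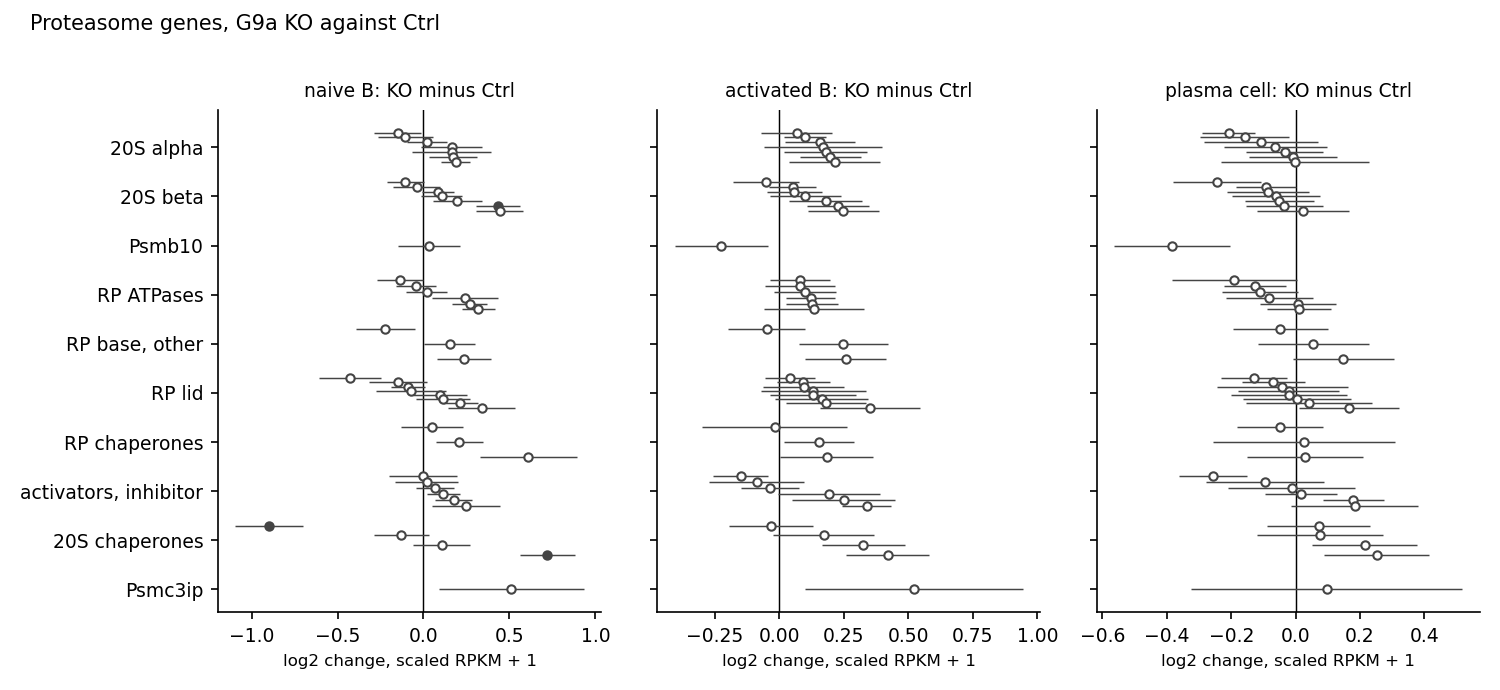
Each point is 1 member's KO minus Ctrl change on the log2(scaled RPKM + 1) scale with its SE, in rows by role, for naive (left), activated (middle) and plasma cells (right). Filled points passed an adjusted p under 0.05: 3 in naive cells and none in the others. In activated cells 38 of 46 lie above 0, and in plasma cells 18 do.

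In naive B cells KO against Ctrl, 2 members were higher and 1 lower by the fit of all libraries, where 2.10% of all genes were higher and 5.12% lower. The fit of only the naive libraries called none of the members and 0 of all genes. In the fit of all libraries 10 members had an unadjusted p under 0.05, and all genes at that p were not counted. Psmg2, a core assembly chaperone (Entrez 107047), was 18.9, 25.3 and 20.7 scaled RPKM in Ctrl and 29.4, 34.8 and 45.6 in KO, a change of 0.72 ± 0.16 SE (adjusted p = 0.013, and 0.68 in the naive libraries alone). Psmb1, a beta subunit (Entrez 19170), was 148, 214 and 134 in Ctrl and 195, 227 and 236 in KO, with overlap (0.43 ± 0.13 SE, adjusted p = 0.046 and 0.69). Psmg3, another assembly chaperone (Entrez 66506), was 30.8, 34.3 and 62.0 in Ctrl and 17.4, 27.5 and 19.9 in KO, lower in every KO library (-0.90 ± 0.20 SE, adjusted p = 0.012 and 0.67).

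The catalytic and regulatory members of naive KO cells were not called. Psmb5 was 94.0, 103 and 135 scaled RPKM, above every Ctrl library, with an adjusted p of 0.056. Psmb6 was 185, 145 and 178, Psmb7 17.5, 27.2 and 19.7 and Psmb10 149, 80.4 and 132. Psme1 was 307, 256 and 288, Psme2 245, 201 and 274, Psme3 65.4, 69.6 and 75.8, Psme4 7.34, 10.6 and 5.77 and Psmf1 9.64, 11.7 and 15.6. Of these 9 genes Psmb5 was the only one whose groups did not overlap.

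Genes that work with the proteasome were taken from lists made by function. Nfe2l1 encodes Nrf1, which is held in the endoplasmic reticulum and released after Ngly1 removes its sugars and the protease Ddi2 cuts it. Of 7 regulator genes tested, 3 rose and none fell between activated and plasma cell Ctrl, where 16.1% of all genes rose and 16.7% fell. These were Ngly1, Nfe2l1 and Ddi2. Ngly1 was 13.6, 15.6 and 14.0 scaled RPKM in activated and 34.2, 38.5 and 38.6 in plasma cell Ctrl (1.31 ± 0.14 SE, adjusted p = 6.1e-07). Nfe2l1 was 15.1, 13.5 and 14.7 in activated and 22.9, 18.8 and 24.3 in plasma cell Ctrl (0.57 ± 0.16 SE, adjusted p = 0.0089). Ddi2 was 7.74, 8.11 and 7.85 in activated and 16.8, 13.2 and 15.5 in plasma cell Ctrl (0.85 ± 0.27 SE, adjusted p = 0.021). The same 3 genes rose at this step in KO, where 15.8% of all genes rose. At the first step in Ctrl 2 regulators rose (the NF-Y subunits Nfyb and Nfyc) and 1 fell (Nfe2l2). Of all genes, 19.0% rose and 39.4% fell at that step.

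The segregase p97, which pulls tagged proteins out of membranes and hands them to the proteasome, rose at both steps in Ctrl. Its gene Vcp was 80.0, 73.5 and 88.3 scaled RPKM in naive, 249, 256 and 225 in activated and 512, 489.6 and 527 in plasma cell Ctrl (1.58 ± 0.11 and 1.06 ± 0.11 SE). Its partner Nploc4 also rose at both steps (1.34 and 1.05), and the partner Ufd1 rose at the second (0.88 ± 0.16 SE).

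Of 14 proteasome-bound enzymes and shuttle factors, 4 rose and 3 fell at the first step (19.0% and 39.4% of all genes) and 4 rose and 1 fell at the second (16.1% and 16.7%). The deubiquitinase Uchl5 rose at the first (1.00) and fell at the second (-0.57), while the proteasome-bound thioredoxin Txnl1 rose at both (1.00 and 1.30). Of 6 further subunits and assembly factors with other symbols, only the maturation factor Pomp was called at the first step (0.43 ± 0.12 SE) and 0 at the second. In KO against Ctrl neither these 2 lists nor the regulators held a called gene in activated or plasma cells. In naive cells Nfe2l1 was higher and Ddi2 and Ngly1 lower by the fit of all libraries. In that fit 2.10% of all genes were higher and 5.12% lower. None of Nfe2l1, Ddi2 and Ngly1 was called in the naive libraries alone.

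From naive to plasma cells of Ctrl mice as a whole, 35 of 46 members rose and 4 fell, where 24.3% of all genes rose and 44.4% fell. This comparison shares its libraries with both steps above. The members that fell were again Psmb10, Psme1, Psme2b and Psmg4, with Psmg4 lowest at -1.25 ± 0.16 SE. In bulk libraries fewer cells of a type and less RNA per cell cannot be told apart. Exons of 13 members are shared with another gene in GENCODE M21, over 10% of exon bases in 5 of them: Psmd9 (25.5%), Psmc3ip (21.2%), Psmb5 (12.1%), Psmb7 (11.8%) and Psmd13 (10.1%). Whether the authors' counting used strand is not given in the sources used here.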

How the data were processed

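The values were the deposited RPKM of 12960 genes, which the authors computed with 1 column per library. Per the submitters' processing notes, STAR and mm10 were used. The counter behind the RPKM is not given in the sources used here. Each library was divided by a median-of-ratios factor (0.903 to 1.07, over 8012 genes above 1 RPKM in all libraries). The 12787 genes with a group mean of at least 1 were tested as log2(scaled RPKM + 1) in limma 3.58.1 (R 4.3.3, lmFit and eBayes with trend, 6 group means, two-sided, Benjamini-Hochberg over all genes). The fit was checked on simulated data. Adjusted p-values come from limma throughout.

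Depth was estimated from the RPKM steps that 1 read makes and covers counting error only. Members and gene lists were chosen with earlier results of these data known, and lists were described by counts, not tested. Some listed genes, and the counts that need them, are not reported here. Library values were given for catalytic and regulatory members and up to 4 called members per direction with the smallest adjusted p. Members with other names were added after their values were seen. Positions are from GENCODE M21 (GRCm38, that is mm10). Plots used Python 3.11.15 and matplotlib 3.10.9.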

Additional observations from a re-analysis of the deposited data

Results flagged for a closer look

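The KO effect on Psmg3 differed between activated and naive cells by 1.07 ± 0.28 SE (adjusted p = 0.047, limma interaction term): KO minus Ctrl was 0.17 in activated and -0.90 in naive cells. All 3 activated KO libraries were above, and all 3 naive KO libraries below, the Ctrl libraries. The call was lost in 26 of 33 settings, with an adjusted p of 0.19 in the fit of only the libraries compared.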

How the results depend on the processing

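Members called (in either direction) were recounted under each setting. Of the counts, 230 stayed within 1.5 times the reported one and 80 did not. Rises and falls from naive to activated or plasma cells kept their counts within that range throughout. Besides the directions that turned in plasma minus activated Ctrl and the median in plasma cell KO, both given above, Psme2, plasma minus naive Ctrl, turned to -0.31 and was called after quantile normalization. That setting moved the median of all genes in activated minus naive Ctrl from -0.29 to -0.06.

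The KO effect in naive cells (3 members) became 5 on the RPKM as deposited and 0 in the fit of only the libraries compared or with weighted libraries. In activated cells (0) it became 6 with library weights, and 4 in the fit of only the libraries compared and without the naive libraries. In plasma cells (0) it became 6 with library weights and 2 without the naive libraries. Plasma minus activated Ctrl (11) became 23 in the fit of only the libraries compared, 29 with library weights and 25 without the naive libraries. The same step in KO (9) became 14 on the RPKM as deposited and, under the same 3 settings, 19, 24 and 21. The difference of the KO effect between activated and naive cells (1, Psmg3) became 0 on the RPKM as deposited, after quantile normalization, with a pseudocount of 0.1, in the fit of only the libraries compared and with library weights. The difference between plasma and activated cells (0) became 3 with library weights.

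Leaving out 1 library at a time, in the fit of all libraries or of only those compared (the latter chosen after seeing the data), gave 0 to 6 members for naive KO, 0 to 3 for activated KO, 0 to 1 for plasma cell KO, 8 to 22 for plasma minus activated Ctrl (18, 20 or 22 in the fit of only those compared) and 6 to 21 in KO (15, 16, 17 or 21 in that fit). It gave 0 to 2 for the activated minus naive difference of the KO effect and 0 to 5 for the plasma minus naive difference. The naive KO count was 6 without naive KO replicate 2 and 5 without naive Ctrl replicate 2.

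Replicate numbers were not taken to pair the samples, since in no comparison were all 3 same-numbered pairs correlated above 0.1. Same-numbered Ctrl and KO libraries correlated at -0.00, -0.19 and -0.12 in naive, -0.21, -0.17 and 0.07 in activated and 0.07, 0.20 and 0.31 in plasma cells. Same-numbered activated and plasma cell libraries, which the labels do not tie to 1 animal, correlated at -0.01, 0.12 and 0.15 in Ctrl and 0.05, -0.19 and -0.03 in KO. In none of these comparisons did every library correlate best with its own number. In plasma cells, however, each KO library correlated best with the Ctrl library of its own number, so a pairing there is not settled. With the replicate block the activated minus naive difference had 0 members. In the fit of only the libraries compared the block gave 0 for naive KO, 5 for activated KO, 4 for plasma cell KO, 24 for plasma minus activated Ctrl and 19 in KO.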
